A study of Mus musculus with 5 samples.

Results

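The genes described here are the nuclear ribosomal RNA (rRNA) genes that received reads in Surface-seq of EL4 cells. They were taken as every gene of type rRNA in GENCODE M21, other than the mitochondrial rRNA genes and CT010467.1, whose counts summed to 50 or more over 5 libraries. Of 55385 genes listed, 79 met this rule, and they were separated into 60 genes with an n-R5s symbol, which annotate copies of 5S rRNA, and 19 with other symbols. The members were thus chosen by their summed count, and their presence is not a result. The members just inside the threshold were n-R5s127 and Gm24009, with 51 counts each, and the genes just outside were Gm24939 with 46 counts and n-R5s90 with 45. The sum is weighted towards the deeper libraries. Gm24009 drew 48 of its 51 counts from B1.

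EL4 is an established mouse lymphoma line grown in suspension. Surface-seq starts from plasma membrane that was stripped from the cells and wrapped, outer face outwards, around polymer nanoparticles. In variation A (3 libraries, A1, A2 and A3), RNA was extracted from the whole coated particle with phenol and chloroform before both adaptors were joined. In variation B (2 libraries, B1 and B2), the 3′ adaptor was joined while the RNA was still on the particle. This step was meant to favour outward-facing RNA, and the 5′ adaptor was added after purification. The study's methods describe repair of the RNA ends for extracted RNA and list none for ligation on the particle. For the latter they also name purification on silane beads, increased RNA input and PCR cycles, and size selection of the libraries. Steps that differ in this way cannot be told apart from the variation. All libraries share the cell line, and no library of whole-cell RNA is among them, so the levels below are levels in membrane preparations, in which fewer particles with an RNA and less RNA per particle cannot be told apart. The study compared B with A to find outward-facing RNA. No label says that the libraries came from separate cultures, so the p-values measure only the spread between these libraries, which may be technical.

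The 5S rRNA is the smallest RNA of the large ribosomal subunit. It is made by RNA polymerase III from short genes whose promoter lies inside the transcribed sequence, where TFIIIA and TFIIIC bind, and it is carried to the assembling subunit by the ribosomal proteins Rpl5 and Rpl11. Active 5S genes of the mouse stand in a tandem cluster, and many altered copies are scattered over the other chromosomes. The 5.8S rRNA has another origin, since it is cut by nucleases from the long RNA polymerase I precursor that also holds the 18S and 28S rRNAs.

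The annotated 5S copies differ in sequence, and this bears on which of them can be counted, since reads that aligned to several places were left out. The copies were compared as GENCODE M21 transcripts on GRCm38. The most common n-R5s sequence is 119 bases long. It is shared by 25 n-R5s genes and serves as the 5S reference.

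All 25 identical copies lie in a cluster of 41 n-R5s genes, all on the minus strand, at chr8:123538786-123622046. None of the 25 had a count in any library. Over the whole annotation, 36 of the 180 n-R5s genes have an identical annotated copy, and 0 of these 36 had a count. Of the 144 n-R5s genes without an identical copy, 108 had a count. The uncounted RNA from the identical copies is therefore outside every value given here, and the n-R5s values describe only copies with bases of their own. The other 174 rRNA-type genes included 109 with no count and 45 with 1 to 49 counts.

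**Figure D1:**
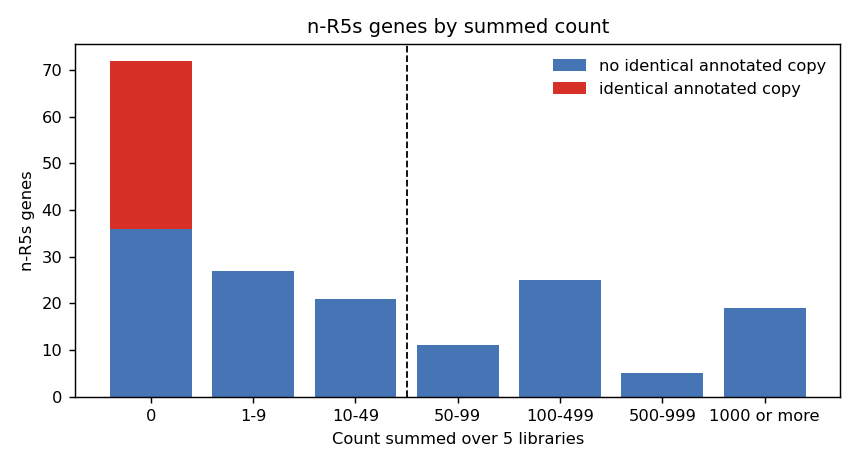
Number of n-R5s genes (vertical axis) by the count summed over 5 libraries (horizontal axis), with genes that have an identical annotated copy in red and the others in blue. The dashed line marks the threshold for a member, and all 36 genes with an identical copy stand in the bar at 0.

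In the cluster, 4 genes passed the threshold and 36 had no count. The 4 members are n-R5s136 (chr8:123599861-123599979), n-R5s109 (chr8:123554060-123554178), n-R5s115 (chr8:123564286-123564404) and n-R5s127 (chr8:123584535-123584653). They have the length of the reference and no gap against it. The number of substitutions was 1 in n-R5s136, 2 in n-R5s115, 3 in n-R5s109 and 8 in n-R5s127. Among all annotated rRNA genes, 33.3% of the 30-base windows of n-R5s136 were unique to it, against 46.7% for n-R5s109 and a median of 86.0% over the 60 n-R5s members.

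The other n-R5s copies on which the comparison below turns are scattered over the genome. Of those called higher in variation B, n-R5s2 (chrX:6106891-6107009, plus strand) carries 4 substitutions and is the most counted copy. The others called higher are more altered. They are n-R5s195 (chr3:39635964-39636082, minus strand) with 8 substitutions, n-R5s209 (chr1:26959103-26959221, minus strand) with 11, n-R5s197 (chr3:88906510-88906628, plus strand) with 12, n-R5s29 (chr17:78858934-78859052, plus strand) with 17, n-R5s52 (chr13:14118743-14118855, minus strand) with 20 and n-R5s69 (chr11:57764427-57764545, plus strand) with 24.

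The copies with the largest falls are shorter than the reference, which is not particular to them. Of the 60 n-R5s members, 33 have the length of the reference, and n-R5s52, called higher, is 113 bases long with 8 gapped columns. n-R5s80 (chr10:105804087-105804197, minus strand) is 111 bases long and n-R5s217 (chr1:138878262-138878377, minus strand) 116, and their best local matches to the reference span 83 and 91 alignment columns. n-R5s68 (chr11:27085126-27085207, plus strand) is 82 bases long, with 37 gapped columns against the reference. Among other copies with high counts, n-R5s28 (chr17:47848834-47848952, plus strand) has 6 substitutions and n-R5s194 (chr3:4338998-4339116, plus strand) has 5.

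The 60 n-R5s members matched the reference at 77.6% to 99.2% of the aligned bases, with a median of 90.8%. They carried 1 to 33 substitutions each, with a median of 13, and 30 of them had no gap. Of 798 substitutions in all, 450 (56.4%) were C-to-T or G-to-A changes.

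The 5 libraries differed in depth, with 1187117 (A3) to 4502174 (A2) counts in variation A against 21862003 (B1) and 22980172 (B2), so 3 counts correspond to a CPM (counts scaled to a library of 1000000) of 0.666 to 2.53 in variation A and of 0.131 to 0.137 in variation B. Depth and variation cannot be told apart by design. A1 stood apart from A2 and A3 and nearer to variation B in some abundant RNAs. The mitochondrial rRNA mt-Rnr1 had a CPM of 6901 in A1, 278 to 343 in A2 and A3, and 5099 to 5586 in variation B, and Gm26917 had 8021, 46557 to 55766, and 9005 to 9069. Levels below are normalised CPM, which is counts divided by library totals scaled by the TMM factor of edgeR (0.570 to 0.879 in variation A, 1.85 to 1.88 in variation B), unless a share of the library is named. On this scale the median gene of 10287 tested had a log2 fold change of 0.05 between variations, and on library totals alone it had 1.50, so directions below are relative to the bulk of genes. All 7 T lymphocyte markers had counts in every library, and Cd3e and Cd3g were called higher in variation B (log2 fold changes 1.13 and 2.00). The summed CPM of the B cell, erythroid and epithelial marker lists was at most 2.00 in any library, and that of the myeloid list at most 5.79. Within that list Lyz2 had no count in variation A and 73 and 133 counts in variation B. It was called higher there, at least 4.32-fold against 3 counts over the variation A libraries together (adjusted p = 0.037). Lyz2 passed the filter on low counts through variation B alone, so this call is a description. The floor of 3 counts was a normalised CPM of 0.570 over the 3 variation A libraries. Without A2 it was 1.115, so the bound is lower then. Csf1r had 0, 7 and 2 counts against 5 and 0, and Cd14 had 1 count in each variation. The part of these markers in the results was not tested.

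Among the members, the largest difference in amount was in 5.8S rRNA. The gene n-R5-8s1 (chromosome 18, 73533403 to 73533550, minus strand), annotated as 5.8S, held 24.6% of all counts in A1 (95% Wilson interval 24.6% to 24.7%). A2 had 21.6% (21.5% to 21.6%), and the share of A3 was 21.1% (21.01% to 21.16%). The shares of B1 and B2 were 2.35% (2.34% to 2.35%) and 2.42% (2.42% to 2.43%). Intervals and floors cover counting error only, because the reads carry no molecular identifiers and may be copies of one molecule. The groups did not overlap, at 22.4% ± 1.93 (SD, n = 3) and 2.38% ± 0.0550 (SD, n = 2), a 9.41-fold difference. On the normalised scale the log2 fold change was -4.74 ± 1.29 (approximate SE, adjusted p = 0.032 by edgeR). The call was lost without B1, without B2, at equal depth and with the replicate block, while the direction held in all 13 alternatives.

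A ratio within a library needs no scaling. For each read of CT010467.1, the most counted rRNA-type gene of the libraries, n-R5-8s1 had 0.978 reads in A1, 0.669 in A2 and 0.647 in A3. The ratio was 0.117 in B1 and 0.113 in B2, so the 5.8S gene was lower in variation B also against this other rRNA gene, by 6.64 times on the means. CT010467.1 itself had a normalised CPM of 287576, 564434 and 573208 in variation A and of 106885 and 116531 in variation B, a difference that was not called (log2 fold change -2.09, adjusted p = 0.24).

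A second gene resembling 5.8S went the other way. Gm24601 (chr6:94826781-94826923, minus strand) is 143 bases long and matches n-R5-8s1 at 78.3% of its aligned bases, and no other member resembled 5.8S over more than a short stretch. Its normalised CPM was 327, 182 and 141 in variation A (values here and below in the order A1, A2, A3) and 929 and 713 in variation B (B1, B2), so both variation B libraries were above all variation A libraries. The log2 fold change was 1.92 ± 0.42 (adjusted p = 0.016). This call was lost without A2, without A3, without B1, without B2, at equal depth and with the replicate block. The reads of n-R5-8s1 per read of Gm24601 numbered 859 to 2635 in the 3 variation A libraries and 13.5 to 18.5 in variation B.

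The 60 n-R5s members together took a small share of each library. In variation A they held 0.0917% (Wilson interval 0.0878% to 0.0956%), 0.151% (0.147% to 0.155%) and 0.170% (0.163% to 0.178%) of the counts. In variation B they held 0.372% (0.369% to 0.374%) and 0.183% (0.181% to 0.184%). B2, at 0.183%, was close to A3 and B1 was not, and the log2 ratio of the means, 1.01, became 0.41 without B1. It was 0.38 without n-R5s2 and 0.33 on library totals from which rRNA and mitochondrial genes were removed. On the normalised scale the sums were 1046, 2643 and 2993 in variation A and 1984 and 993 in variation B, and the log2 ratio changed sign to -0.58. The amount of all counted 5S copies therefore had no direction that held across scalings. Set against the 5.8S gene, the n-R5s members had 3.72 to 8.07 counts per 1000 counts of n-R5-8s1 in variation A and 75.3 to 158.5 in variation B.

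Which copies held the counts differed between the variations and also among the variation A libraries. The copy n-R5s2 held 8.35%, 9.74% and 6.04% of the n-R5s members' counts in variation A. In variation B it held 41.2% and 38.9%. The groups did not overlap, at 8.04% ± 1.87 (SD, n = 3) and 40.0% ± 1.65 (SD, n = 2), and this share does not depend on library scaling. The most counted copy was n-R5s80 in A1, n-R5s28 in A2, n-R5s28 in A3, and n-R5s2 in both variation B libraries. The cluster copy n-R5s109 held 4.50%, 10.5% and 9.95% in variation A and 0.698% and 0.863% in variation B. Within variation A, n-R5s80 held 31.9% in A1, 0.0294% in A2 and 14.3% in A3.

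**Figure D2:**
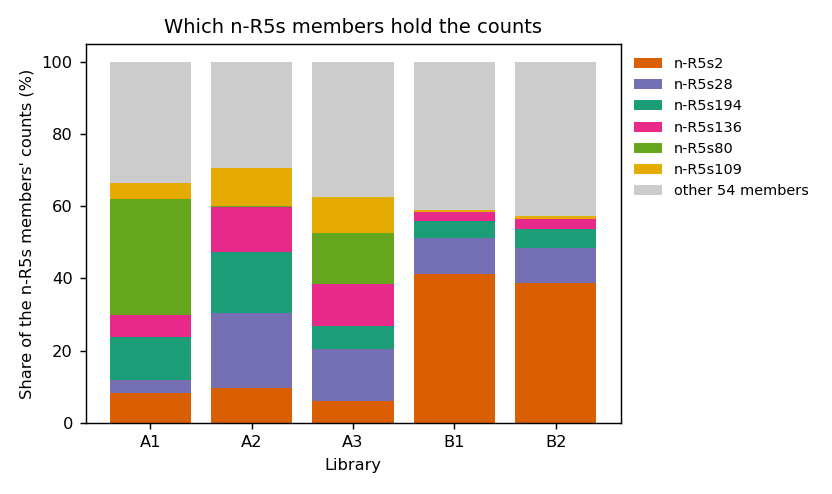
Share of the counts of the 60 n-R5s members (vertical axis, percent) held by 6 of them and by the other 54, in each library (horizontal axis). The bar of n-R5s2 is 6.04% to 9.74% in variation A and 38.9% to 41.2% in variation B, and n-R5s80 is visible in A1 and A3 only.

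The ranking of the copies was alike in B1 and B2 and less alike in variation A. Across the 60 n-R5s members, Spearman's rho between normalised CPM values was 0.97 for B1 and B2, 0.87 for A1 and A3, 0.63 for A2 and A3 and 0.51 for A1 and A2. Between variations it was 0.28 to 0.57, with A2 nearest to both variation B libraries. The copies were chosen by a sum to which variation B gave most counts (81289 and 41957, against 2109, 6795 and 2021 in variation A), and only 43 of all 79 members reached 50 counts in variation A alone. How far depth and this choice set the likeness within variation B was not tested. The points are genes, not replicates, and genes share how much of their sequence is unique.

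Each member was compared between variations with edgeR over all genes. Of 10287 genes tested, 11.0% were called higher and 12.4% lower in variation B (fold change above 2 and adjusted p under 0.05). Of the 79 members, 68 passed the filter on low counts, and 9 of these were called higher and 26 lower. Among the n-R5s members, 7 of 51 tested were higher and 15 lower, and among the other rRNA members 2 of 17 were higher and 11 lower. The share called higher, 13.2%, was close to that of all genes, and the share called lower, 38.2%, was above it. The median log2 fold change was -1.33 over the n-R5s members tested and -3.95 over the others. On library totals alone these medians were 0.21 and -2.35, where that of all genes was 1.50. Of the n-R5s members, 15 were then higher and 8 lower, and of the others 2 were higher and 8 lower. Over all genes, 55.1% were higher and 2.93% lower on that scale. A member could pass the filter through the variation where it is high, so these figures describe the members that passed and not all members. Over all 79, both variation B libraries were above all variation A libraries in 14 members and below them in 28. Among the 11742 genes with 50 counts or more, 30.6% were above and 23.9% below in this way.

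The counts of calls depended on the libraries and the scaling. On library totals alone, 17 members were called higher and 16 lower, while over all genes the split moved from 1135 higher and 1276 lower to 5668 higher and 301 lower. Of the 35 called members, 27 could be fitted in all 13 alternatives and 8 were removed by the filter in 1 or more, and in the 446 fits made no called member changed direction. Leaving out a library gave 3 (without B1) to 10 (without A1) higher, and 2 (without B2) to 37 (without A1) lower. Without A2, 7 were higher and 18 lower, without A3, 6 were higher and 14 lower, without B1, 3 were higher and 6 lower, and without B2, 5 were higher and 2 lower. The share of all genes called moved too, from 23.4% to 35.8% without A1, 7.10% without A2, 7.44% without A3, 4.22% without B1 and 2.86% without B2. At equal depth, with every library drawn down to 1187117 counts, 1 member was higher and 1 lower, with 46 tested and 3.30% of all genes called. Only n-R5s52 and n-R5s33 kept their calls there, 26 others were fitted and not called, and 7 were not tested. Calls described below as lost are those lost in the other alternatives. Leaving out 1 library shifted the fitted fold change by more than 1.5 times in 23 of the 35 called members.

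**Figure D3:**
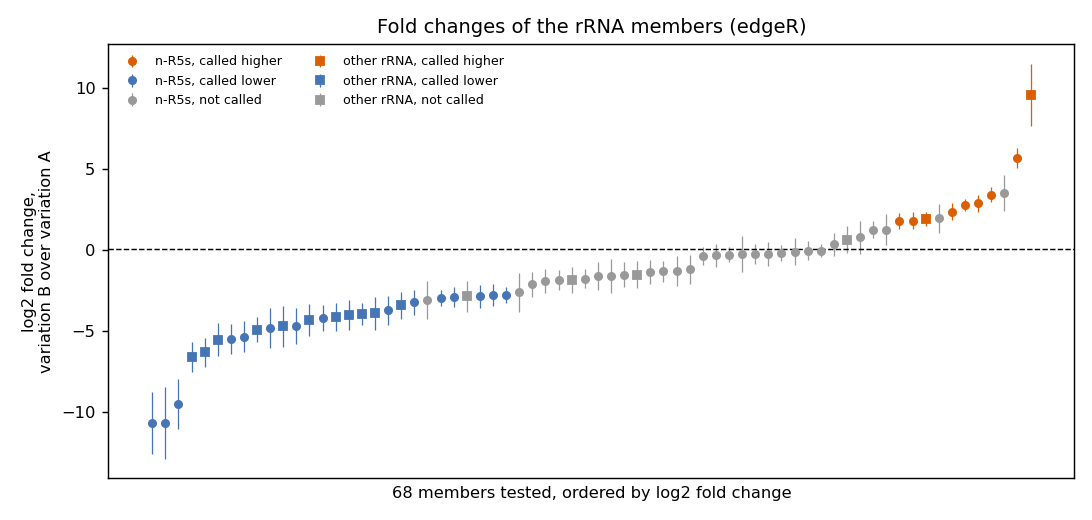
Log2 fold change of variation B over variation A (vertical axis) for the 68 members tested, in ascending order (horizontal axis), with bars for the approximate SE. Orange and blue mark members called higher and lower, circles are n-R5s members and squares the others, and the dashed line is the median of all genes at 0.05. The 3 lowest points are n-R5s217, n-R5s80 and n-R5s68, and the highest is Gm25447, whose value is fitted against no counts in variation A.

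Among the n-R5s members that rose, n-R5s2 was the most abundant. Its normalised CPM was 87.3, 257 and 181 in variation A and 817 and 386 in variation B (log2 fold change 1.78 ± 0.50, adjusted p = 0.036). Both variation B libraries were above all variation A libraries, but B1 was far above B2 and the call was lost without A3, without B1 (log2 fold change 1.13) or without B2.

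One of the rises was in a copy with almost no reads in variation A. For n-R5s52, which lies on chromosome 13 inside Arid4b on the opposite strand, normalised CPM was 1.49, 0.389 and 1.48 in variation A, from 5 counts in all. It was 67.6 and 32.3 in variation B. The log2 fold change was 5.68 ± 0.60 (adjusted p = 0.0012), and the ratio of pooled levels was 52.3 (exact 95% counting interval 22.4 to 161). Without 1 library the log2 fold change ranged from 5.02 (without B1) to 6.42 (without A1). This was the only called member to keep its call under all 13 alternatives, equal depth included. It met the count threshold and passed the filter through variation B, where it is high, so its call is a description.

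The next rises were n-R5s197, n-R5s69 and n-R5s209. For n-R5s197, on chromosome 3 in Gon4l, values were 1.49, 3.11 and 2.96 in variation A and 31.7 and 20.7 in variation B (log2 fold change 3.41 ± 0.46, adjusted p = 0.0029). It met the count threshold and passed the filter through variation B. Its call, kept in all 12 alternatives in which it was fitted, is therefore a description. For n-R5s69, on chromosome 11 in Galnt10, values were 10.4, 4.28 and 13.3 against 85.6 and 38.7 (log2 fold change 2.87 ± 0.52, adjusted p = 0.0087), and the call was lost without B1. With 21, 11 and 9 counts in variation A, n-R5s69 met the count threshold through variation B, so its call is a description. For n-R5s209, on chromosome 1 between genes, values were 9.42, 13.6 and 16.3 against 110 and 63.7 (log2 fold change 2.78 ± 0.37, adjusted p = 0.0030). In each of the 3 copies the variation B values stood well above the highest variation A value.

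The remaining rises were n-R5s29 and n-R5s195, and both overlap an exon of a gene on the opposite strand, so their counts are uncertain. n-R5s195 overlaps Gm42781 and had 8.43, 33.1 and 28.1 in variation A and 107 and 53.8 in variation B (log2 fold change 1.81 ± 0.53, adjusted p = 0.041). The call was lost under upper-quartile scaling and without A3, B1 or B2. n-R5s29 overlaps Eif2ak2, a kinase activated by double-stranded RNA, and had a log2 fold change of 2.36 (adjusted p = 0.016), a call lost without B1. Eif2ak2 itself was called higher (log2 fold change 1.40, adjusted p = 0.029). The other n-R5s members with an exon overlap were n-R5s1 and n-R5s64, neither of them called.

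**Figure D4:**
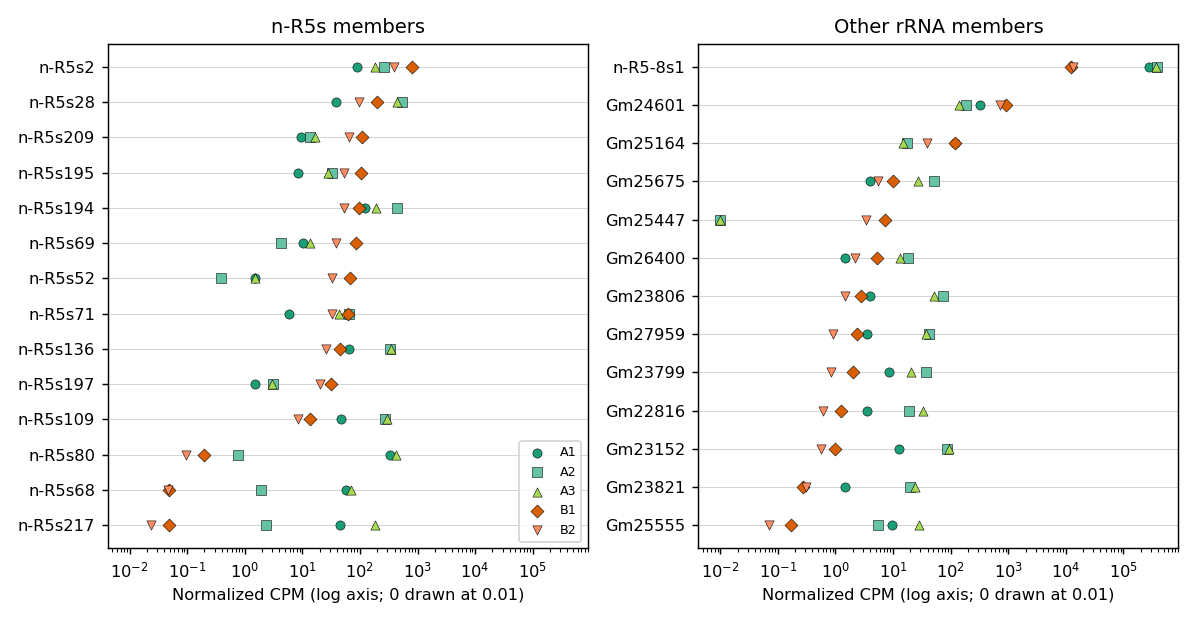
Normalised CPM (horizontal log axis) of named n-R5s members (left) and named other rRNA members (right) in each library, with green symbols for variation A and orange symbols for variation B. A level of 0 is drawn at the left end, where the 3 variation A libraries of Gm25447 stand. The orange symbols lie to the right of the green ones for n-R5s2, n-R5s209, n-R5s69, n-R5s52 and n-R5s197, and to the left for n-R5s109 and n-R5-8s1.

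Of the 4 members in the chromosome 8 cluster, 3 were called lower in variation B (2 of them also on library totals alone), where 12.4% of all genes tested were. For n-R5s136, normalised CPM was 64.5, 334 and 342 in variation A and 44.7 and 26.3 in variation B (log2 fold change -2.79 ± 0.70, adjusted p = 0.025). For n-R5s109 it was 47.1, 278 and 298 against 13.8 and 8.57 (log2 fold change -4.20 ± 0.79, adjusted p = 0.0098). On this scale neither pair of groups overlapped, and A1 was the lowest of variation A in both. On library totals the groups of n-R5s136 did overlap, with a CPM of 56.5 in A1 against 83.7 in B1 and 48.3 in B2. Those of n-R5s109 did not.

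The other cluster copies differed from each other. For n-R5s127 levels were 2.98, 6.61 and 19.3 in variation A and 0.171 and 0.189 in variation B (log2 fold change -5.50, adjusted p = 0.0077). It passed the filter through variation A, where it is high, so its call is a description. For n-R5s115 levels were 12.4, 79.3 and 31.1 against 41.5 and 29.8, with overlapping groups and no call (log2 fold change -0.24 ± 0.62, adjusted p = 0.80). The calls of n-R5s136, n-R5s109 and n-R5s127 were lost without B1 and without B2, and that of n-R5s136 also without A2, without A3 and on library totals alone. On library totals the 4 cluster members summed to a CPM of 111, 398 and 393 in variation A (301 ± 164, SD, n = 3) and of 188 and 119 in variation B (153 ± 48.5, SD, n = 2). The groups overlapped, since A1 was below both variation B libraries.

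The 3 largest falls were in copies that were high in A1 and A3 and low in the other libraries. n-R5s80, on chromosome 10 in Mettl25, had a normalised CPM of 334 in A1, 0.778 in A2 and 428 in A3, and of 0.195 in B1 and 0.0947 in B2 (log2 fold change -10.70 ± 2.21, adjusted p = 0.013). The A2 value, from 2 counts, was nearer to variation B than to A1 or A3, and the call was lost without B1 and without B2. Without A1 or without A3 the copy was removed by the filter and was not tested. It thus passed the filter through A1 and A3, where it is high, and its call is a description.

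The same pattern over libraries was seen in n-R5s217 and n-R5s68. For n-R5s217 levels were 45.6, 2.33 and 185 in variation A, and variation B had 3 counts in all, against 223 in variation A. The ratio of pooled levels was 1176 (exact counting interval 397 to 5744), with an adjusted p of 0.0087. The fitted log2 fold change of n-R5s217 moved from -10.72 to -9.09 without A3. For n-R5s68 levels were 57.0, 1.94 and 69.6, from 167 counts, and variation B had 4 counts, a ratio of 660 (253 to 2452), with an adjusted p of 0.0061. These 2 copies passed the filter through variation A, where they are high, so their calls are a description. Both calls were lost without B1 and without B2. Other copies with this pattern, n-R5s86 (22.8, 3.89 and 104 in variation A) and n-R5s176 (10.4, 1.56 and 22.2), were picked out after their values were seen.

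The 15 n-R5s copies called lower had log2 fold changes from -10.72 to -2.77, and among them n-R5s33 in Lrch3, 96.6% like the reference, went from 24.8, 48.2 and 75.5 to 7.27 and 4.85 (log2 fold change -2.98 ± 0.50, adjusted p = 0.0072). It lost its call without B1 and without B2.

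Several of the most counted copies were not called. n-R5s28, on chromosome 17, had 38.2, 545 and 433 in variation A and 199 and 94.6 in variation B, where the variation B values lie inside the range of variation A (log2 fold change -1.21 ± 0.88, adjusted p = 0.33). It was called lower without A1 (-1.63, adjusted p = 0.00075), and its direction turned on library totals alone, at 0.47. n-R5s194, on chromosome 3, had 124, 448 and 194 against 95.9 and 52.8 and missed the threshold (log2 fold change -1.78 ± 0.57, adjusted p = 0.052). It was called lower by DESeq2 (adjusted p = 0.017), with RLE scaling (0.047), upper-quartile scaling (0.042) and the replicate block (0.046), and without A1 (0.00066). n-R5s71 had 5.95, 65.3 and 43.0 against 62.6 and 33.0, and its direction changed with the libraries left out (log2 fold change 0.33 ± 0.72, adjusted p = 0.76).

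The sequence and position of a copy were set beside its change, as a description. Of the n-R5s members tested, 18 had 90% or more of the reference bases, of which 2 were higher and 4 lower, with a median log2 fold change of -0.72. Of 14 with 80% to 90%, 2 were higher and 1 lower, with a median of -0.89. Of 19 with less than 80%, 3 were higher and 10 lower, with a median of -2.87. Across the 51 copies, Spearman's rho between bases matched and log2 fold change was 0.26. Of 24 copies inside another gene, 5 were higher and 7 lower, and of 27 between genes, 2 were higher and 8 lower. The share among all genes tested was 11.0% higher and 12.4% lower, and differences between these classes were not tested.

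Apart from the pair that resembles 5.8S, the other rRNA members were 5S-like copies with Gm symbols, 17 in number. Of these, 10 were called lower, 1 higher, 4 were not called and 2 were not tested, where 11.0% of all genes tested were higher and 12.4% lower. The falls had log2 fold changes from -6.64 to -3.43. Gm23152, in Prex1 on the same strand, had 12.9, 87.1 and 93.3 in variation A and 0.976 and 0.568 in variation B (log2 fold change -6.34 ± 0.90, adjusted p = 0.0038). Gm25555, in Zfp811, had 9.42, 5.45 and 28.1 against 0.171 and 0.0710 (log2 fold change -6.64 ± 0.94, adjusted p = 0.0037). Gm23152 and Gm25555 passed the filter through variation A, where they are high, so their calls are a description. Each lost its call only at equal depth.

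Next in size was Gm23821, between genes on chromosome 1, with 1.49, 19.4 and 23.7 in variation A and 0.268 and 0.308 in variation B (log2 fold change -5.57 ± 1.02, adjusted p = 0.0091). It too passed the filter through variation A, and its call is a description. Gm23806, Gm27959, Gm23799 and Gm22816 were also lower, with log2 fold changes from -4.32 to -3.95. In Gm23806 the A1 value of 3.97 was close to the 2.81 of B1, while A2 had 73.5 and A3 had 51.8. The calls of Gm23821 and Gm22816 were lost without B1 and without B2, and that of Gm23799 without B2. Those of Gm23806 and Gm27959 were lost without A2, A3, B1 or B2, and that of Gm27959 also on library totals alone (adjusted p = 0.051).

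Of the copies not called, Gm25164 had 119, 17.5 and 14.8 in variation A and 121 and 39.1 in variation B (log2 fold change 0.62 ± 0.83, adjusted p = 0.60), a direction that turned without B1. Gm25675 had a log2 fold change of -1.85 ± 0.80 (adjusted p = 0.12). Gm26400 had -1.53 ± 0.81 (adjusted p = 0.19), which turned to 0.10 on library totals alone. Without A1 each of the 3 was called, Gm25164 higher (adjusted p = 0.0022) and Gm25675 (0.00022) and Gm26400 (0.0054) lower. In all, 13 members that were not called gained a call without A1.

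The 5S-like copy that rose, Gm25447, had no count in A1, A2 or A3 and a normalised CPM of 7.39 in B1 and 3.43 in B2. Set against a floor of 3 counts over the 3 variation A libraries together, a normalised CPM of 0.570, it was at least 9.496-fold higher in variation B. It met the count threshold and passed the filter through variation B alone, so its call (adjusted p = 0.018) is a description. The bound was 5.86 without A1, 4.86 without A2 and 6.02 without B1. The call was lost without A2, without B1 and without B2. It lies in Abcg1, a cholesterol exporter, on the same strand, and Abcg1 moved the other way, from 270, 310 and 370 to 165 and 151 (adjusted p = 0.048). Of the members not tested, n-R5s15, n-R5s37 and n-R5s64 also had no count in variation A.

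Since a copy inside a gene can receive reads from that gene's unspliced RNA, the host genes were read from the same test. Of 11 host genes tested beside a called copy, 4 were called in the direction of the copy, 1 in the other and 6 were not called, where 23.4% of all genes tested were called in either direction. Beside n-R5s52, Arid4b rose by a log2 fold change of 1.91 (adjusted p = 0.018), and beside n-R5s197, Gon4l rose by 1.30 (adjusted p = 0.017) while Msto1, on the opposite strand there, was not called (-0.81, adjusted p = 0.18). Beside n-R5s69, Galnt10 was not called (log2 fold change -0.26, adjusted p = 0.62). Beside Gm23152, Prex1 fell by 2.07 on the log2 scale (adjusted p = 0.012). Lrch3 beside n-R5s33 (log2 fold change -0.08, adjusted p = 0.88), Sec23ip beside n-R5s158 (-0.47, 0.30) and Cadps2 beside Gm27959 (-2.60, 0.15) were not called. Beside n-R5s80, Mettl25 had at most 6.71 normalised CPM in any library, against 334 and 428 for the copy in A1 and A3. The host values count exons, and the part of intron reads in the copies was not tested.

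The proteins that make, carry and bind these RNAs were read from lists of 37 genes, all tested, of which 7 were called higher and 1 lower. Against the 11.0% higher and 12.4% lower of all genes, these counts give the position of the lists only. Of 23 genes for 5S transcription, 6 were higher. They were the TFIIIC subunits Gtf3c4 (log2 fold change 1.39, adjusted p = 0.012), Gtf3c5 (1.15, 0.043) and Gtf3c6 (1.88, 0.018), the TFIIIB parts Bdp1 (1.96, 0.011) and Tbp (1.52, 0.045), and the polymerase subunit Polr3g (1.92, 0.010). Gtf3a, which encodes TFIIIA, was not called (log2 fold change -0.67, adjusted p = 0.43), and its direction turned on library totals alone.

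Among 5 genes of the 5S particle, Rpl11 fell by 1.97 on the log2 scale (adjusted p = 0.0056; -0.48 and not called on library totals alone) and Rpl5 was not called (log2 fold change -0.25, adjusted p = 0.55, with a direction that turned on library totals alone). Of the genes whose proteins bind new or misfolded 5S, Ssb, which encodes the La protein, rose (log2 fold change 4.87, adjusted p = 0.0036), and Ro60 had 1.48 (adjusted p = 0.060). None of 7 genes for the release of 5.8S from its precursor was called. Of the 37, 11 were higher and 5 lower without A1, 4 higher and 1 lower without A2, 3 and 1 without A3, 2 and 0 without B1, and 1 and 0 without B2. The shares of all genes called higher were then 20.8%, 3.46%, 3.57%, 1.92% and 1.55%, and those called lower 15.0%, 3.64%, 3.86%, 2.30% and 1.32%. On library totals alone 20 were higher, where 55.1% of all genes were. The values are mRNA levels in membrane preparations.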

How the data were processed

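Surface-seq was measured in 3 variation A and 2 variation B libraries of EL4 cells, grouped by the library names in the labels. The authors trimmed reads with Trimmomatic (0.36 per the submitters' processing notes), aligned them to GRCm38 with STAR 2.7.3a and counted them with featureCounts 1.6.4 on GENCODE M24 exons. The deposited values are counts per gene, with no normalization. Strand was ignored, and reads with several alignments or over several genes were left out. GENCODE M21 gave a symbol and type to 55144 of the 55385 listed identifiers.

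CPM used library totals, and normalised CPM used TMM. The comparison of the variations used the quasi-likelihood test of edgeR 4.0.16 (R 4.3.3) after filterByExpr and TMM. The p-values were adjusted over every gene tested by Benjamini and Hochberg's method. DESeq2 1.42.0, the study's tool, was an alternative. The approximate SE is the size of the log2 fold change over the root of the F statistic. In a simulation that altered 200 of 10287 genes, edgeR recovered 84.5% of them. Unaltered genes made up 8.15% of the 184 edgeR calls, more than an adjusted p threshold of 0.05 is meant to allow. With DESeq2 they made up 12.9%, and with the replicate block 13.3%. The fit to the libraries called 23.4% of genes, so the simulation does not give the share of false calls here. Sequences were compared with Biopython 1.88, and unique windows of 30 bases were counted among annotated rRNA genes, not the genome. The base sequences of the copies are not reported here. No 2 libraries were duplicates. The members and gene lists were chosen with earlier results of these data known. Named members were the 10 of highest mean CPM in each class and the 3 largest called rises and falls of each class, and all others were chosen after their values were seen. The alternatives were RLE, upper-quartile and no scaling, DESeq2, no filter, the replicate block, equal depth, rRNA and mitochondrial genes left out, other count thresholds, and each library left out.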

Additional observations from a re-analysis of the deposited data

How the results depend on the processing

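No called member changed direction in the 446 fits made over 13 alternatives (8 of 35 called members were not tested in 1 or more). Counts of calls did move. On library totals alone 17 members were higher and 16 lower (9 and 26 with TMM), and 20 pathway genes were higher and 0 lower (7 and 1 with TMM). Over all genes, 5668 were then higher and 301 lower, against 1135 and 1276. At equal depth 1 member was higher and 1 lower, and 2 pathway genes were higher and 0 lower, with fewer genes tested. Upper-quartile scaling gave 2 lower pathway genes. Leaving out a library gave 3 to 10 members higher, 2 to 37 lower, 1 to 11 pathway genes higher and 0 to 5 lower.

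The log2 ratio of summed CPM of the n-R5s members, 1.01, reversed to -0.58 on TMM library sizes and was 0.33 on totals without rRNA and mitochondrial genes and 0.38 without n-R5s2. That of the other rRNA members, -3.13, moved to -4.64 on TMM sizes, to -3.80 on totals without rRNA and mitochondrial genes, and to 2.25 without n-R5-8s1. Of members not called, n-R5s28 turned to 0.47 and Gm26400 to 0.10 on library totals, Gm25164 turned to -0.41 without B1 (highest 2.37, without A1), and n-R5s71 turned to -0.14 without A1, -0.21 without B1 and -0.17 at equal depth (highest 1.28, without A2). The cause was not tested.

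For same-numbered libraries, deviations from the group mean had correlations of -0.10 for A1 and B1 and -0.03 for A2 and B2 over 10287 genes. Over the 68 members tested the correlations were 0.12 and 0.07. With 2 variation B libraries, the deviations of B2 are those of B1 with the sign turned. These values therefore cannot show whether same-numbered libraries deviate together. With 2 such pairs and no label that ties them, the libraries share only a number. With the replicate block, 9 members were higher and 26 lower, 4 pathway genes were higher, and 761 genes were higher and 813 lower. The number of members was 96 at a summed count of 20, 61 at 100 and 92 at equal depth with a scaled threshold. Depth limits variation A: 3 counts in A3 are a CPM of 2.53.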
